A study of Homo sapiens with 10 samples.

Results

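In A253 cells, a line derived from a squamous cell carcinoma of the salivary gland, 181 long intergenic noncoding RNA genes (LINC genes) were expressed. They were chosen by their symbol, LINC followed by digits, and by their level, at least 1 CPM (the count divided by the library total and multiplied by 1000000) in at least 2 of 6 libraries. The count table listed 58735 genes, 1878 of them with such a symbol, and 888 of these had no count in any library. The rule uses the level and not the difference between groups, but 20 of the 181 genes reached it only through both libraries of 1 group and therefore had to differ in level from the rest. Of these 20 genes, 10 reached it through the control, 2 through Cl1 and 8 through Cl10, and they are marked where they are described. For these genes no p is given for the difference from the group that carried them past the rule. Others reached it only in libraries of 2 groups, so the rule also favoured a difference from the remaining group. Their p against that group is only a description. Where clone libraries alone reached it, as for LINC00519, LINC01559, LINC01213 and LINC02541, no p against the control is given.

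RNA was sequenced from 3 groups of 2 libraries to find the genes that change when DUSP1, a phosphatase that inactivates mitogen-activated protein kinases, is deleted. The control carried a guide RNA against dTomato, a gene that human cells do not have, and the clones Cl1 and Cl10 carried guide RNAs that remove exon 2 of DUSP1. All 3 groups received guide RNA and Cas9 by lentivirus with drug selection, and both clones were heterozygous (DUSP1-/+). The paper nevertheless reports that neither clone expressed DUSP1 protein. Each clone grew from a single cell, so a difference between a clone and the control cannot be told apart from a difference between individual cells of the line. Nothing in the labels says that the libraries of a group came from separate cultures, so the p-values measure only the spread between these libraries, which may be technical.

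LINC RNAs are transcribed from their own genes, outside the exons of protein-coding genes, and most are spliced, capped and polyadenylated like messenger RNAs but encode no known protein. Some act on the chromatin or the transcription of neighbouring genes, others bind proteins or microRNAs elsewhere in the cell, and for most no function is known. Many are made at a low level and in few cell types, and in squamous epithelium several have been tied to keratinocyte differentiation and to transcription driven by TP63.

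The libraries held between 47016495 and 70986593 counts. DUSP1 itself was at 13.2 and 11.1 CPM in the control libraries, 5.02 and 6.06 in Cl1 and 8.74 and 7.38 in Cl10 (log2 fold changes -1.07 and -0.59). The labelled cell type carried its markers: 8 of 8 genes of squamous epithelium (KRT5, KRT14, KRT17, TP63, CDH1, EPCAM, DSP and SFN) summed to between 12500 and 14300 CPM, and none was called in any comparison. Of the other lists, the 7 fibroblast genes summed to 30.9 to 51.8 CPM, the 5 leukocyte genes to 0.255 to 0.677 CPM and the 4 endothelial genes to 2.74 to 7.64 CPM. LUM and KDR were at 0 in every library. Of these lists, only CDH5, an endothelial cadherin, was called against the control, higher in Cl10.

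The LINC RNAs were scarce. Their median level was 2.51 CPM over the 6 libraries, with a range from 0.643 to 82.7 CPM, against 31.6 CPM for the protein-coding genes that reached the same level rule. Per kilobase of exon the medians were 0.963 and 5.46 CPM. Together the 181 genes took 0.1% to 0.121% of each library. Of the 181 genes, 115 reached 1 CPM in all 6 libraries and 25 in exactly 2. The genes just inside the level rule were LINC01776, LINC01504 and LINC00921, whose second highest library stood at 1.01, 1.01 and 1.05 CPM (LINC01776 through the control only), and those just outside were LINC01348, LINC02532 and LINC00640 at 0.986, 0.972 and 0.963 CPM. The median gene had a mean of 148.0 counts per library and the lowest 35.8, which limits the precision of the low members.

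GENCODE v44, an annotation of hg38, holds each of the 181 identifiers, and there 170 are of the type lncRNA, 18 carry another symbol and 1 has none. LINC00514 (now GREP1), LINC00634 (SMIM45) and LINC00672 (LASP1NB) are annotated as protein-coding. Another 7 are annotated as transcribed unprocessed pseudogenes and 1 as a transcribed unitary pseudogene. The genes lay on 23 chromosomes, and chromosome 1 held the highest number, 26. The start of the median gene lay 33.4 kb from the nearest protein-coding start; 22 lay within 1 kb of one and 39 over 100 kb away. Although named intergenic, 23 overlapped a protein-coding gene on the opposite strand and 11 on the same strand. The strand setting of the counting is not given in the sources used here, so reads of an overlapping pair cannot be told apart.

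Per kilobase of exon, the most abundant LINC RNA was LINC00674, with a mean of 46.9 CPM per kb, then LINC01843 (30.1), LINC02474 (26.5), LINC00431 (16.9) and LINC01145 (16.4). The annotated exons of LINC00674, LINC00431 and LINC01145 add up to only 160, 159 and 143 bases, which raises their level on this scale. GENCODE v44 types each of them as a transcribed unprocessed pseudogene. The annotation used for counting is not given, so these lengths may not be those counted, and their rank is uncertain. LINC00674 had 469 and 439 TMM-normalized counts (counts scaled by edgeR's normalization factors to the mean library total) in the control libraries, 464 and 554 in Cl1, and 329 and 342 in Cl10, and was not called (log2 fold changes 0.16 and -0.43). LINC01843 was therefore the highest of those with exons of over 1000 bases, and LINC02474 followed it. The nearest protein-coding gene to LINC02474 is DUSP10, a phosphatase of the same family as DUSP1, whose start lies 224252 bases away. LINC02474 had 1743 and 2156 normalized counts in the control libraries, 2152 and 2856 in Cl1 and 1809.7 and 1819 in Cl10. The libraries of each clone overlapped those of the control, and neither difference passed the test (log2 fold changes 0.36 and -0.10, adjusted p = 0.0894 and 0.514 by edgeR). Cl10 lay below Cl1 without overlap, by -0.46 on the log2 scale (adjusted p = 0.0029 by edgeR), under the fold-change threshold.

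The 2 control libraries served both clones, and the clones were also set against each other, with edgeR's quasi-likelihood test over all genes. Called genes had an adjusted p under 0.05 and changed by more than 1 on the log2 scale. In Cl1, 14 LINC RNAs rose and 14 fell, together 15.5% of the 181, against 7.54% of all genes tested (4.27% higher and 3.27% lower) and 6.22% of those at the same level rule. In Cl10, 19 rose and 24 fell, 23.8% of the 181, against 13.4% of all genes tested (5.98% higher and 7.44% lower) and 11.7% at the same level rule. Between the clones, 17 were higher and 22 lower in Cl10 than in Cl1, 21.7% of the 180 tested, against 10.8% of all genes (4.47% higher and 6.28% lower) and 8.23% at the level rule. Other annotated long noncoding RNAs at the same level rule were called at 10.8%, 20.4% and 13.9% in these 3 comparisons, and protein-coding genes at 5.52%, 10.4% and 7.34%. The genes that reached the level rule through 1 group only made up 7 of the 28 calls in Cl1, 11 of the 43 in Cl10 and 10 of the 39 between the clones.

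The share called was lowest in the most abundant genes, in LINC RNAs and in others, in both clones against the control. Below a mean of 2 CPM, Cl1 had calls for 19.2% of the LINC RNAs and 17.7% of the other genes and Cl10 for 28.8% and 29.8%, while between the clones they were 31.5% and 23.8%. From 2 to under 5 CPM the LINC RNAs stood above the other genes, at 20.8% (11 of 53) beside 204 of 1702 in Cl1 and at 26.4% beside 21.1% in Cl10. At 5 CPM or more they were 5.45% and 3.31% in Cl1 and 14.5% and 7.03% in Cl10, which rest on 3 and 8 called LINC RNAs of 55. No test of these shares was made. The median log2 fold change of the 181 genes was -0.12 in Cl1 and -0.25 in Cl10, beside -0.01 for all genes tested in each.

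**Figure D1:**
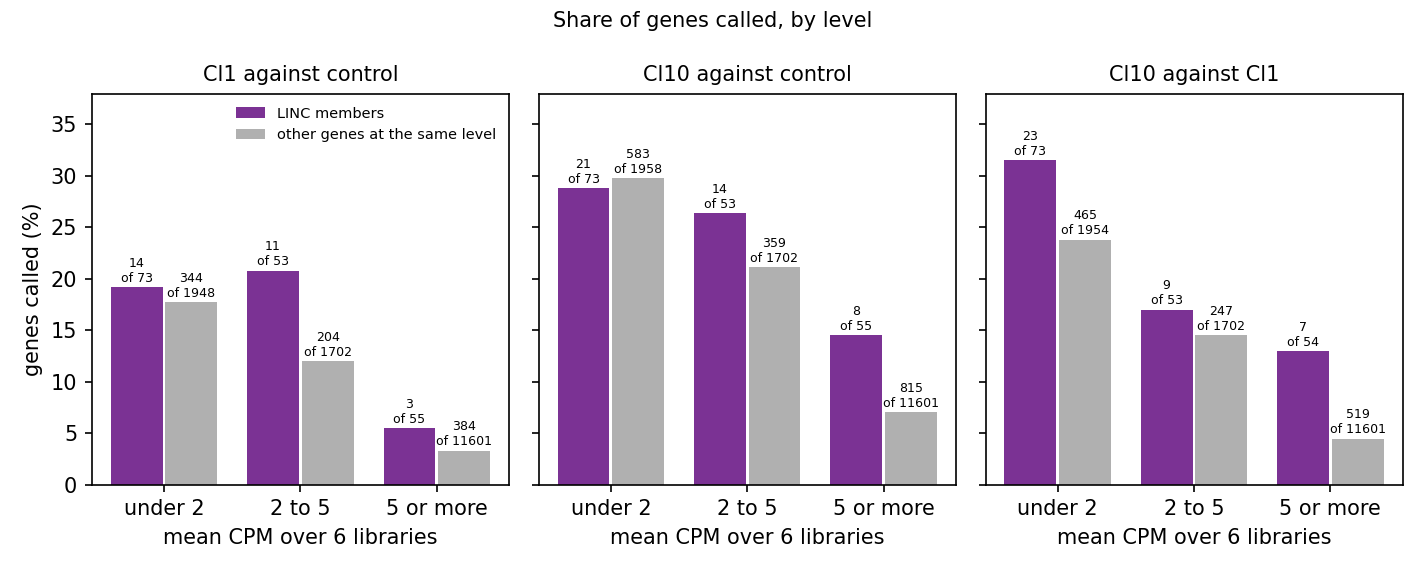
Share of genes called (vertical axis, percent) by mean level in CPM over the 6 libraries (horizontal axis), for the LINC RNAs and for the other genes that reached the same level rule, in 3 comparisons. The numbers above the bars give the genes called of those tested; the LINC bars fall from 28.8% below 2 CPM to 14.5% at 5 CPM or more in Cl10 against the control.

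A call in at least 1 clone was made for 57 LINC RNAs, of which 14 had it in Cl1 only, 29 in Cl10 only and 14 in both. Of the last, 7 were higher in both clones (3.87% of the 181, against 1.79% of all genes tested in both fits), 5 were lower in both (2.76%, against 1.69%) and 2 went in opposite directions. The remaining 124 were called in neither clone. The clones share their controls, so the values of each are given side by side and nothing is read from how far the calls overlap.

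LINC02582 was the only LINC RNA that was on in one group (both libraries at 1 CPM or more) and off in another (both libraries at 3 counts or fewer). It is a lncRNA gene (ENSG00000261780, hg38 chr18:73324941-73349879, plus strand), and the nearest protein-coding start, that of NETO1, lies 456795 bases away. Its raw counts were 1367 and 1135 in the control libraries, 0 and 0 in Cl1, and 0 and 1 in Cl10. It therefore reached the level rule through the control only. Against a floor of 3 counts over the group, which covers counting error only, its level was lower at least 841-fold in Cl1 and, with the same floor, at least 728-fold in Cl10. The gene was named for this pattern, so no test is given. Of the 15444 genes at the level rule, 17 (0.11%) were on in one group and off in another, 15 of them protein-coding. Just below the level rule, and named here after their values were seen, 2 more LINC genes were near 0 in the control and counted in Cl10. LINC02009 had 3 and 1 counts in the control, 2 and 1 in Cl1, and 52 and 43 in Cl10. LINC02518 had 1 and 0 in the control, 25 and 19 in Cl1, and 51 and 40 in Cl10. Neither reached 1 CPM in 2 libraries, so neither belongs to the 181.

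Among the other LINC RNAs that fell in both clones, LINC00707 fell most in Cl1. LINC00707, reported as a sponge of microRNAs in several carcinomas (ENSG00000238266, chr10:6779549-6842906, plus strand), had 557 and 556 normalized counts in the control, 75.1 and 66.8 in Cl1 and 160.1 and 163 in Cl10. No clone library came near a control library. On the log2 scale it fell by 2.96 in Cl1 (standard error 0.171, adjusted p = 2.41e-07 by edgeR) and by 1.78 in Cl10 (0.119, adjusted p = 0.000114 by edgeR). It was also higher in Cl10 than in Cl1, by 1.18 on the log2 scale. LINC00592 (ENSG00000258279, chr12:52164115-52223813, plus strand), which reached the level rule through the control only, had 114 and 112 normalized counts in the control, 35.9 and 48.0 in Cl1 and 12.8 and 7.18 in Cl10. Its log2 fold changes were -1.44 and -3.45, and Cl10 lay below Cl1. LINC00592 overlaps KRT80, a type II keratin of differentiating epithelium, on the opposite strand. KRT80 moved the other way and was called higher in Cl1 (1.19), with 0.46 in Cl10.

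LINC01152 and LINC01694 fell by similar amounts in both clones. LINC01152 (ENSG00000256124, chr17:72030291-72041310, plus strand) lies in the gene desert upstream of SOX9, a transcription factor of epithelial progenitors, 90729 bases from its start. It reached the level rule through the control only, with 71.1 and 73.1 normalized counts there, 21.3 and 19.9 in Cl1 and 24.6 and 27.5 in Cl10. The log2 fold changes were -1.79 and -1.46, while SOX9 had 0.35 and 0.47 and was not called. In Cl10 the 50 nearest genes had a median of -0.65, and LINC01152 less this median was at -0.82, under the fold-change threshold. The part of this stretch in the result was not tested. LINC01694 (ENSG00000233922, chr21:45590771-45603088, plus strand) had 508 and 423 normalized counts in the control, 188 and 212 in Cl1 and 189 and 165 in Cl10. The clones overlapped each other and lay below the control, with log2 fold changes of -1.22 and -1.39 (adjusted p = 0.000214 and 0.000595 by edgeR).

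**Figure D2:**
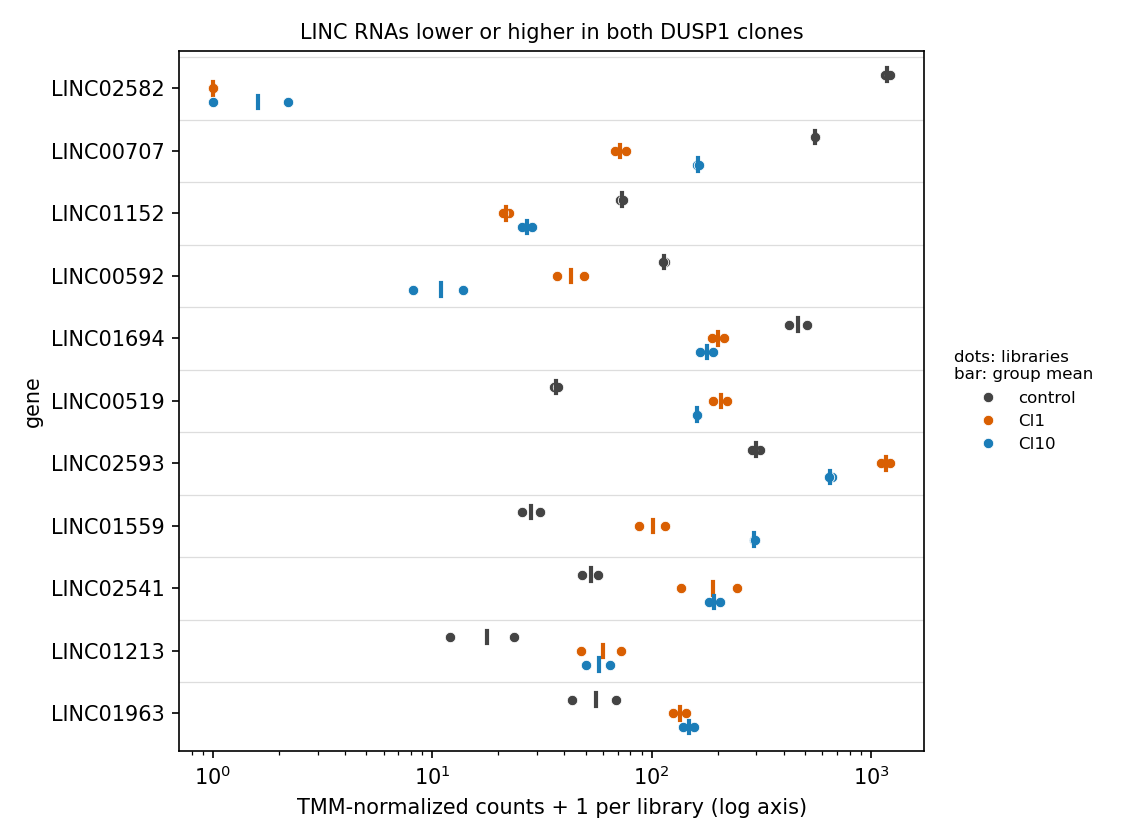
TMM-normalized counts plus 1 per library on a log axis (horizontal) for LINC02582, the other 4 LINC RNAs lower in both clones and 6 of the 7 higher in both (vertical), with 1 dot per library and a bar at the group mean. In every gene shown, the 4 clone libraries lie on one side of both control libraries; LINC02582 is at 1156 and 1220.3 in the control and at most 1.2 in the clones.

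Of the LINC RNAs that rose in both clones, LINC01559 rose most in Cl10 and LINC00519 in Cl1. LINC01559 (ENSG00000180861, chr12:13371089-13387167, minus strand) had 24.5 and 30.1 normalized counts in the control, 86.2 and 114 in Cl1, and 292 and 294 in Cl10. It reached the level rule through the clones only. The groups were in steps without overlap. The log2 fold change was 1.87 for Cl1, 3.43 for Cl10 and 1.57 between the clones (adjusted p = 1.03e-05 by edgeR). LINC00519 (ENSG00000258955, chr14:51304108-51331918, minus strand) had 34.7 and 36.6 in the control, 190.4 and 220.2 in Cl1, and 159 and 160.3 in Cl10. It too reached the level rule through the clones only. Its log2 fold changes were 2.52 (standard error 0.229) and 2.17 (0.2). The clones did not differ past the test (-0.35, adjusted p = 0.0857 by edgeR).

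LINC02593 was the most abundant LINC RNA that rose in both clones. This gene (ENSG00000223764, chr1:916865-921016, minus strand) starts 2907 bases from the start of SAMD11, a protein-coding gene transcribed away from it. It had 311 and 285 normalized counts in the control, 1106 and 1224 in Cl1, and 660.2 and 640.1 in Cl10, so the 3 groups did not overlap. The log2 fold changes were 1.97 and 1.13 (adjusted p = 1.12e-06 and 0.000403 by edgeR), and SAMD11 was called higher in both clones as well (2.10 and 1.45). LINC02541, LINC01213 and LINC01963 also rose. LINC02541 (ENSG00000230943, chr6:113616927-113650090, minus strand) had 47.4 and 55.9 normalized counts in the control and between 136 and 244 in the clones, with log2 fold changes of 1.87 and 1.91. LINC01213 (ENSG00000244541, chr3:150238519-150244232, plus strand) had at most 22.6 in the control and between 46.9 and 71.7 in the clones, with 1.87 and 1.77. LINC01963 (ENSG00000260804, chr2:216217045-216220192, plus strand) had 42.3 and 67.7 in the control and between 125 and 155 in the clones, with 1.30 and 1.44, but without control replicate 1 its value in Cl1 was 0.98, under the threshold. For these 3 genes both clones lay above the control and overlapped each other. LINC02541 and LINC01213 reached the level rule through clone libraries only.

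Promoters, from 250 bases before to 50 after the start, were read from the RefSeq table of GRCh38.p14, which matched 132 of the 181 genes. They had a median of 61.0% G and C and 14 CpG, beside 58.7% and 14 for all 35116 promoters of the table. A set of 3 short motifs was searched on both strands. The AP-1 site TGANTCA, bound by the JUN and FOS factors that act downstream of the kinases DUSP1 inactivates, stood in 9.85% of the LINC promoters and 7.71% of all promoters. The TATA box TATAAA stood in 7.58% and 11.5%, and the SOX motif ACAATG in 4.55% and 10.8%. Of the LINC RNAs called in at least 1 clone, AP-1 sites stood in 3 of 18 promoters of those called higher and 1 of 23 of those called lower. The TATA box stood in 1 of 18 and 2 of 23, and the SOX motif in 0 of 18 and 0 of 23. These counts are small and nothing is read from them. The promoters shown are those of 4 LINC RNAs that moved the same way in both clones and of LINC00601, which fell in Cl10 and holds 2 motifs. Capitals mark the AP-1 sites of LINC00519 (TGACTCA) and LINC00601 (TGAGTCA) and the TATA box of LINC00601; the other 3 hold none of the motifs. The RefSeq start of LINC01213 and LINC00601 is also the GENCODE start, that of LINC02541 lies 15 bases from it and that of LINC01152 363 bases, while that of LINC00519 lies 3533 bases inside the GENCODE gene. In order, with coordinates and strand, they are chr14:51328336-51328635 (minus), chr3:150238269-150238568 (plus), chr6:113650026-113650325 (minus), chr17:72030404-72030703 (plus) and chr10:126421830-126422129 (minus).
LINC00519: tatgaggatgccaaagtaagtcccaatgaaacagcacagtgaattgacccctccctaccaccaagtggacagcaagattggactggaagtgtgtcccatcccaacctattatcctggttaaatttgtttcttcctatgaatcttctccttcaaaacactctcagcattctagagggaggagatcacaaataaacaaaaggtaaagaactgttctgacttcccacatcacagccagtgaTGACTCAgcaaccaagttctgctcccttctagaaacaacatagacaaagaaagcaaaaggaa
LINC01213: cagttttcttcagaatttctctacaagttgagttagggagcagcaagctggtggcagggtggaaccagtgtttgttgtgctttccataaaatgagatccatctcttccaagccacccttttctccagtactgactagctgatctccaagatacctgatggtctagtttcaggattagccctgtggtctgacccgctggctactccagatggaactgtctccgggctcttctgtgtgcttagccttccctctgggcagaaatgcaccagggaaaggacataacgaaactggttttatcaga
LINC02541: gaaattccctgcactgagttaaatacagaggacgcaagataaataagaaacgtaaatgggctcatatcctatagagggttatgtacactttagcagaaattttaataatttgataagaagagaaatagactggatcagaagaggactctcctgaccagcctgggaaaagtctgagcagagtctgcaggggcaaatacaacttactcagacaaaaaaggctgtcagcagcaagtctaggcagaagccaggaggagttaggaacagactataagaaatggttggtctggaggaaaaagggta
LINC01152: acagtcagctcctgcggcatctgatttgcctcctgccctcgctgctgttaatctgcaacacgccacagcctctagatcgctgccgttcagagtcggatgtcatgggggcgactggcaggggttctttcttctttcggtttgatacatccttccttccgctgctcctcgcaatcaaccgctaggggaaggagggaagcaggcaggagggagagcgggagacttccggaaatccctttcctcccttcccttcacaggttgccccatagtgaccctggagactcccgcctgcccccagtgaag
LINC00601: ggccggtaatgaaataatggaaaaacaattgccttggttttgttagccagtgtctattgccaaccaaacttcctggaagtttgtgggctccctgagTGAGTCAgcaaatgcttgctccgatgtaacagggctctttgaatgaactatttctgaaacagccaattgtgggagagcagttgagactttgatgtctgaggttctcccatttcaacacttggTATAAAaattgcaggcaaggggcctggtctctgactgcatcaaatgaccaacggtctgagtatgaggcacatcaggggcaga

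In all, 2 LINC RNAs were called in opposite directions in the clones, 1.1% of the 181, against 0.108% of all genes tested in both. LINC01127 (ENSG00000281162, chr2:101962052-101987167, plus strand), which reached the level rule through Cl10 only, had 33.8 and 43.0 normalized counts in the control, 17.9 and 9.37 in Cl1, and 173 and 187 in Cl10. The log2 fold changes were -1.43 in Cl1 (standard error 0.418, adjusted p = 0.0244 by edgeR), 2.24 in Cl10 and 3.65 between the clones. The call in Cl1 was lost without control replicate 2 (-1.25, adjusted p = 0.0669), without Cl1 replicate 2 (-1.08, adjusted p = 0.152) and with DESeq2 (-1.47, adjusted p = 0.0881). The nearest protein-coding gene, IL1R2, a decoy receptor of interleukin 1 whose start lies 29908 bases away, had log2 fold changes of -2.36 in Cl1, where it was called lower, 0.77 in Cl10 and 3.13 between the clones.

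LINC00514 (ENSG00000262152, chr16:2988256-3002016, plus strand) is annotated in GENCODE v44 as GREP1, which encodes a glycine-rich extracellular protein. It had 149.7 and 106 normalized counts in the control, 231 and 338 in Cl1, and 31.4 and 45.5 in Cl10, and the 3 groups did not overlap. The log2 fold changes were 1.14 in Cl1 (adjusted p = 0.00311 by edgeR), -1.75 in Cl10 (adjusted p = 0.00299) and -2.89 between the clones (adjusted p = 1.41e-06). LINC00514 reached the level rule only in libraries of the control and Cl1, so the p-values that involve Cl10 are only a description. In Cl1 the value fell under the fold-change threshold without control replicate 2 (0.92) or without Cl1 replicate 2 (0.85). Without either of these libraries, no LINC RNA was called in opposite directions, and 8 in place of 5 were called lower in both clones.

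LINC01843 lost the most normalized counts of the 181, and it was called in Cl10 only. This gene (ENSG00000251169, chr5:134506552-134509230, plus strand) had 3357 and 3238 normalized counts in the control, 1752 and 2249 in Cl1, and 443 and 495 in Cl10. The groups did not overlap, with log2 fold changes of -2.81 in Cl10 (standard error 0.0949, adjusted p = 1.45e-05 by edgeR) and -2.09 between the clones (0.116, adjusted p = 4.85e-08). In Cl1 it was at -0.72 (adjusted p = 0.00151), under the fold-change threshold. The 50 nearest genes had a median of 0.34 in Cl1, and the value in Cl1 less this median was -1.06. JADE2, whose start is the nearest of a protein-coding gene, was not called in either clone (0.29 and 0.51).

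A call in one clone, an adjusted p of 0.05 or more in the other and a call between the clones were found together for 2 LINC RNAs called in Cl1 and 17 called in Cl10. The share of all genes with this combination was not counted. Over all genes tested, too, Cl10 had more calls against the control than Cl1 (13.4% and 7.54%), and nothing is read from these 2 counts. Those described are up to 3 in each direction for each clone, with the largest changes. LINC00887 had 127 and 145 normalized counts in the control, 127 and 191 in Cl1, and 24.6 and 22.7 in Cl10, a log2 fold change of -2.51 in Cl10 and 0.22 in Cl1. LINC01703 had 134 and 153 in the control, 119.5 and 110.1 in Cl1, and 32.4 and 25.1 in Cl10, with -2.29 in Cl10 and -0.31 in Cl1. LINC00601, whose promoter is shown above, had 113 and 104 in the control, 70.0 and 79.6 in Cl1, and 35.4 and 33.5 in Cl10, with -1.65 in Cl10 and -0.54 in Cl1. These 3 fell in Cl10 with adjusted p of 0.000316, 0.000462 and 0.00134, and none passed in Cl1 (adjusted p = 0.517, 0.288 and 0.102, all by edgeR). All 3 reached the level rule only in libraries of the control and Cl1, so their p in Cl10 is only a description.

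In the other direction, LINC01160, which overlaps RAP1A on the opposite strand, had 148 and 175 normalized counts in the control, 173 and 205 in Cl1, and 542 and 541 in Cl10. LINC01956, whose start lies 12538 bases from that of EN1, a homeobox transcription factor, had 60.1 and 58.1 in the control, 61.5 and 85.5 in Cl1, and 192 and 199.8 in Cl10. LINC00304, which reached the level rule through Cl10 only and overlaps ACSF3 on the same strand, had 22.8 and 16.1 in the control, 26.5 and 17.6 in Cl1, and 66.8 and 70.6 in Cl10. All 3 rose in Cl10, by log2 fold changes of 1.75, 1.73 and 1.80 (adjusted p = 0.000174 and 0.000469 by edgeR for the first and second), and none passed in Cl1. EN1 was called higher in Cl10 too (1.65), and in Cl1 it had 0.86 and was not called. The 2 LINC RNAs of Cl1 went in opposite directions. LINC01389 rose there, from 35.5 and 39.8 in the control to 114 and 105, beside 53.1 and 44.3 in Cl10 (log2 fold changes 1.55 and 0.38), having reached the level rule through Cl1 only. LINC01204 fell there, from 61.8 and 58.1 to 23.9 and 19.9, beside 47.2 and 71.8 in Cl10 (-1.43 and -0.02). Both were called between the clones, and LINC01204 had an adjusted p of 0.00377 by edgeR there. LINC01204 reached the level rule only in libraries of the control and Cl10, so this p is only a description.

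**Figure D3:**
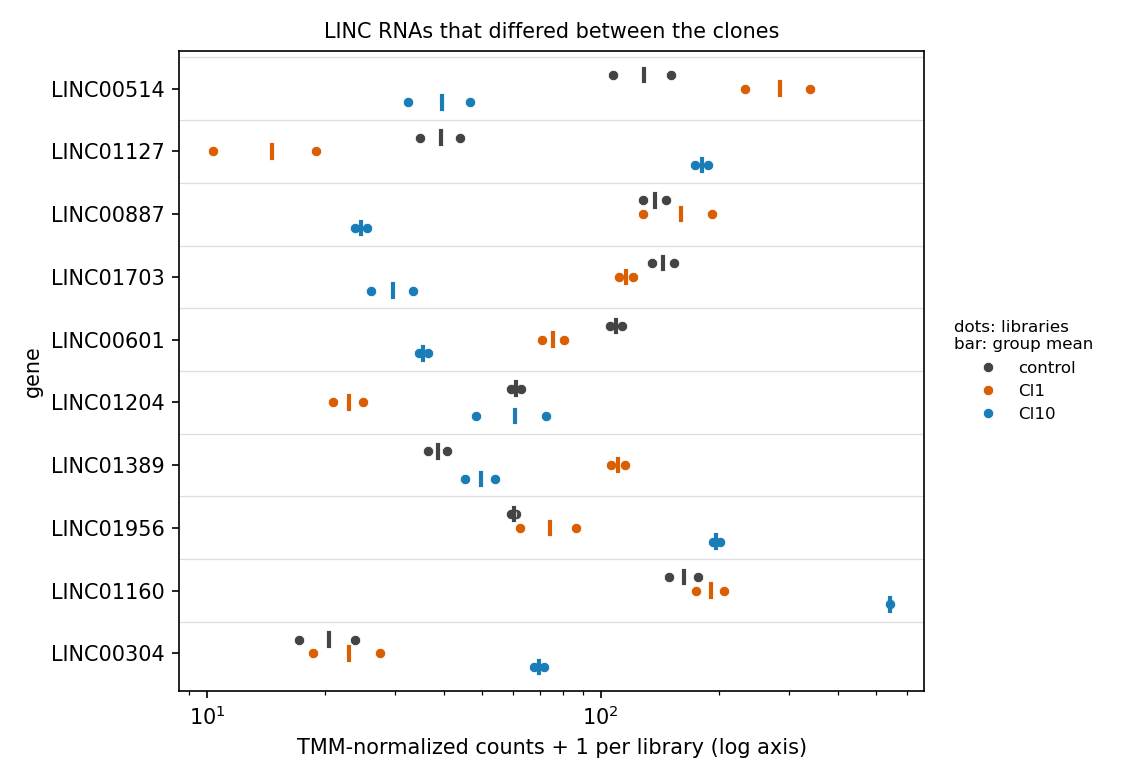
TMM-normalized counts plus 1 per library on a log axis (horizontal) for the 2 LINC RNAs called in opposite directions and for 8 of the 19 called in one clone, missing the adjusted p in the other and called between the clones (vertical), with 1 dot per library and a bar at the group mean. LINC01127 is lowest in Cl1 (9.37 and 17.9) and highest in Cl10 (173 and 187), and LINC00514 has the opposite order.

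Of a list of 25 LINC RNAs with published names or roles, 11 were among the 181. In Cl1, 2 of these 11 fell and none rose, in Cl10 4 fell and 2 rose, and between the clones 2 were higher and 3 lower in Cl10. Of all genes tested, 4.27% rose and 3.27% fell in Cl1, 5.98% and 7.44% in Cl10, and 4.47% and 6.28% were higher and lower between the clones. The list is small and nothing is read from its shares. LINC00707, described above, was the one that fell in both clones. LINC00941, reported to hold keratinocytes back from early differentiation, had 328 and 297 normalized counts in the control, 119 and 128 in Cl1, and 228 and 199.8 in Cl10. It fell in Cl1 (-1.34, standard error 0.173, adjusted p = 0.000161 by edgeR) and was at -0.54 in Cl10 (adjusted p = 0.0203), under the fold-change threshold. The count table gives this symbol to ENSG00000285517, which carries no symbol in GENCODE v44. It overlaps CAPRIN2 on the opposite strand, which was not called in either clone. LINC01133, which binds the splicing factor SRSF6 and has been reported to restrain epithelial-mesenchymal transition, had 92.2 and 97.8 in the control, 129.8 and 146 in Cl1, and 244 and 231 in Cl10. It rose in Cl10 (1.33, standard error 0.157, adjusted p = 0.000833 by edgeR) and was at 0.54 in Cl1 (adjusted p = 0.0774).

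LINC00518, known as a marker in the diagnosis of melanoma, was the other one that rose in Cl10. It reached the level rule through Cl10 only, with 90.4 and 103 normalized counts there, 41.5 and 33.3 in the control and 39.3 and 53.9 in Cl1 (log2 fold change 1.36). Its difference between the clones, 1.07, fell to 0.84 without Cl1 replicate 1 to 0.98 without Cl10 replicate 2 and to 0.99 less the local median, under the threshold. LINC00467, LINC01315 and LINC01138 fell in Cl10. LINC00467 had 386 and 331 in the control, 390.2 and 391 in Cl1, and 166 and 144 in Cl10 (-1.20, adjusted p = 0.00113). LINC01315 had 372 and 431, 331 and 370.1, and 176 and 169 in the same order (-1.21, adjusted p = 0.000758), and it was at -0.70 less the median of the 50 genes around it (-0.51). Its difference between the clones, -1.02, came under the threshold without Cl1 replicate 2 (-0.95), without Cl10 replicate 2 (-0.98), with library size as the only scaling (-0.95) and less the local median (-0.62). LINC01138, which lies among near-identical copies on chromosome 1 and overlaps PPIAL4G on the same strand, so that its counts are uncertain, had 362 and 416, 251 and 301, and 174 and 208 (-1.02, adjusted p = 0.00211). Its call in Cl10 was lost without control replicate 2 (-0.93) and without Cl10 replicate 1 (-0.89), and less the local median (-0.90).

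LINC00511, reported as a partner of the histone methyltransferase EZH2, differed between the clones and was not called in either against the control. It had 2742 and 2401 normalized counts in the control, 4269 and 4138 in Cl1, and 1919 and 1887 in Cl10, and the 3 groups did not overlap. The log2 fold change was 0.71 in Cl1, -0.43 in Cl10 and -1.14 between the clones (standard error 0.0593, adjusted p = 2.71e-08 by edgeR). It lies in the same stretch of chromosome 17 as LINC01152, and its 50 nearest genes had a median of -0.69 in Cl10 and -0.60 between the clones. Less this median, the values were 0.26 in Cl10 and -0.54 between the clones. The last 3 of the list were not called in any comparison. LINC01503, driven by TP63 from a super-enhancer in squamous cell carcinomas, had 1253 and 1344 in the control, 1146 and 1239 in Cl1, and 842 and 843 in Cl10, with a log2 fold change of -0.62 in Cl10 (adjusted p = 0.00182). LINC00346, named PRECSIT for its regulation by p53 in cutaneous squamous cell carcinoma, lay between 614 and 924 in all libraries (-0.03 and 0.45). LINC00857 lay between 319 and 528 (0.02 and 0.61).

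**Figure D4:**
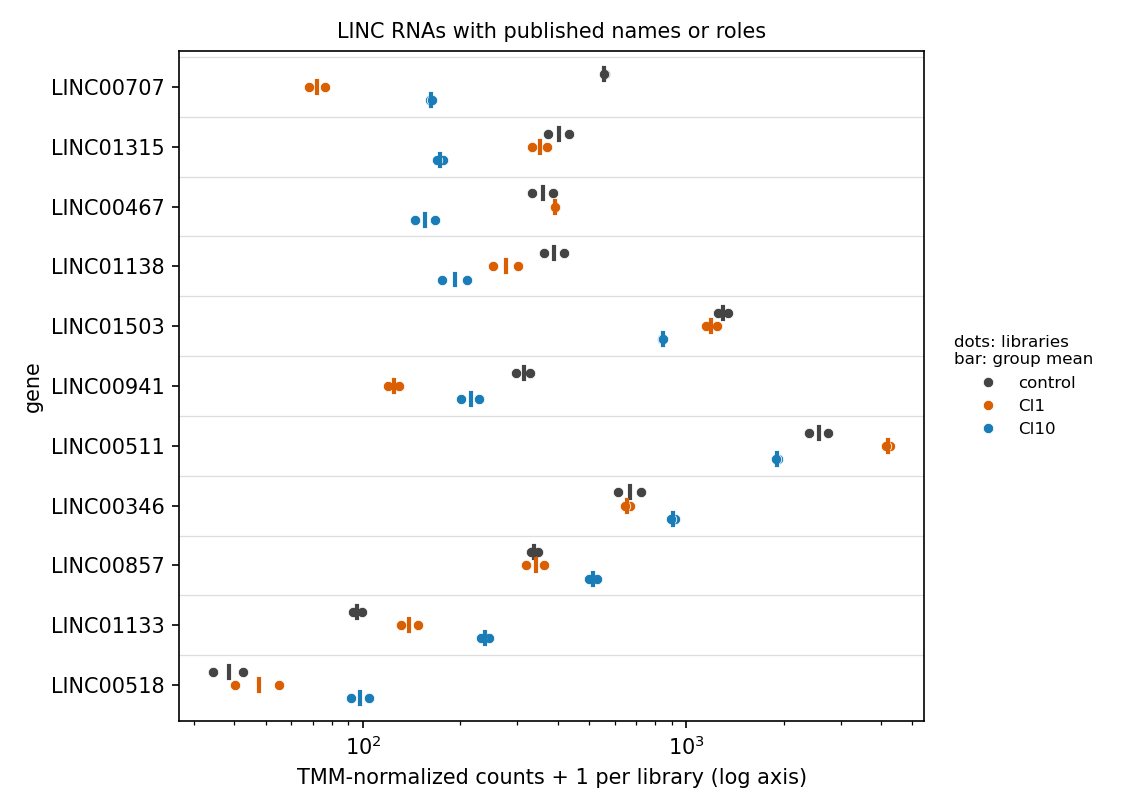
TMM-normalized counts plus 1 per library on a log axis (horizontal) for the 11 LINC RNAs with published names or roles (vertical), ordered by their log2 fold change in Cl10 from the lowest at the top, with 1 dot per library and a bar at the group mean. LINC00707 is lowest in Cl1 (75.1 and 66.8), and LINC00511 is highest in Cl1 (4269 and 4138).

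The direction of the nearest neighbours was also counted. Of the 24 LINC RNAs called in Cl1 whose nearest protein-coding gene was tested, that gene was called the same way in 3 (12.5%), against 13.2% of 763 other genes called. In Cl10 it was 5 of 37 (13.5%) against 17.1% of 1426, and between the clones 3 of 33 (9.09%) against 12.7% of 982. SAMD11, IL1R2 and EN1, given above, are among the neighbours called the same way. KRT80 was the 1 neighbour called the opposite way in Cl1, and there was none in Cl10 or between the clones.

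The 2 libraries of a group were not alike in all LINC RNAs. With at least 100 counts in the pair, their difference had an unadjusted p under 0.05 in a chi-square test against counting noise for 33.5% of 164 in the control, 35.3% of 156 in Cl1 and 17.2% of 157 in Cl10. Over all genes with at least 100 counts in the pair the shares were higher, at 58.5%, 47.3% and 23.6%. Such a test finds less at low counts, and the LINC RNAs are scarce, so the shares cannot be set against each other. A list of 18 other well-known long noncoding RNAs gave 1 higher and 1 lower of 15 tested in Cl1, and 2 higher and 3 lower of 16 in Cl10. Among them, SOX2-OT, the transcript that surrounds SOX2, fell in both clones, with 85 and 77 counts in the control, 33 and 22 in Cl1, and 17 and 5 in Cl10.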

How the data were processed

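Poly(A)-selected libraries were sequenced as paired ends. HISAT2 was used by the authors to align the reads to hg38, and HTSeq to count them. The deposited values are raw counts for 58735 genes in 6 libraries, without normalization, and the submitters' processing notes also list StringTie and DESeq. The annotation and the strand setting are not given in the sources used here. The labels name a stranded kit.

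Counts were tested with edgeR 4.0.16 in R 4.3.3 (filterByExpr, TMM, glmQLFit, glmQLFTest, Benjamini-Hochberg adjustment over all genes tested), with only the 4 libraries of each comparison. Standard errors were derived from each log2 fold change and its F statistic. Local medians use the 50 nearest genes tested. The script was tested on simulated counts. Alternatives were DESeq2 1.42.0, other normalization, filters and thresholds, 1 fit over 6 libraries, a replicate block and leaving out each library. Positions come from GENCODE v44 and distances run from start to start. Not analysed here were the 4 samples of the SOX2 comparison.

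The genes named are LINC RNAs that are on in one group and off in another, up to 6 in each direction called the same way in both clones, those called in opposite directions, up to 3 in each direction that were called in 1 clone, missed the adjusted p in the other and differed between the clones, those on a list of published names or roles, the 5 highest per kilobase and the 3 nearest the level rule on each side. The members and lists were chosen with earlier results of these data known.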

Additional observations from a re-analysis of the deposited data

Results flagged for a closer look

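The log2 fold change against the shared control differed between the clones for 18 of the LINC RNAs named above, tested as Cl10 against Cl1 with edgeR (adjusted p under 0.05 and a difference above 1 on the log2 scale). Higher in Cl10 than in Cl1 were LINC01127 (3.65), LINC00304 (1.61), LINC01559 (1.57), LINC01160 (1.53), LINC01956 (1.43), LINC01204 (1.41), LINC00707 (1.18) and LINC00518 (1.07). Lower in Cl10 were LINC00514 (-2.89), LINC00887 (-2.72), LINC01843 (-2.09), LINC00592 (-2.01), LINC01703 (-1.98), LINC00467 (-1.33), LINC01389 (-1.17), LINC00511 (-1.14), LINC00601 (-1.11) and LINC01315 (-1.02), of which LINC01315 and LINC00518 lost the call under some alternatives and LINC00511 less the local median, as given in the report. In each of these 18 genes both libraries of one clone lay above both libraries of the other. Those named for opposite calls, or for a call in 1 clone and between the clones, were chosen by this difference. For them the list restates how they were named. LINC00304, LINC00518 and LINC01127 reached the level rule through Cl10 only, and LINC01389 through Cl1 only. With 2 libraries per group, single libraries that stand apart within a group were not looked for.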

How the results depend on the processing

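No pairing of the libraries by the replicate numbers of the labels was seen. Over 13719 genes, the deviations of same-numbered libraries from their group means did not rise and fall together. They correlated at -0.179 between control and Cl1, -0.125 between control and Cl10 and -0.036 between the clones. These values cannot show whether same-numbered libraries were prepared together. With the replicate block, 29 LINC RNAs were called in Cl1, 44 in Cl10 and 39 between the clones, and with the numbers crossed, an alternative chosen after seeing the data, 29, 43 and 39.

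Removing the fold-change threshold moved the counts most, to 66 in Cl1 (23 higher and 43 lower), 95 in Cl10 (36 and 59) and 95 between the clones (44 and 51), with 11 called higher in both clones, 29 lower in both and 7 in opposite directions. Without it, 25.1%, 42.5% and 49.0% of all genes tested passed in the 3 comparisons. DESeq2 called 25, 42 and 38 LINC RNAs. The number called in opposite directions, 2 in the report, was 1 with DESeq2 and 4 with no filter on low counts. Leaving out a single library gave 26 to 30 calls in Cl1 (10 to 14 higher, 15 to 20 lower), 39 to 47 in Cl10 (16 to 22 and 23 to 26) and 35 to 45 between the clones (15 to 19 and 19 to 26), and 6 to 7 called higher in both clones, 5 to 8 lower in both and 0 to 3 in opposite directions. In these fits the lone library of a group is assumed to vary like the others.

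When on meant 0.5 CPM or more, 3 LINC genes were on in one group and off in another. At 2 CPM in place of 1, 125 genes met the level rule. Of 116 fold changes of named genes, 85 kept their call under every alternative, 9 lost it under at least 1 and 22 gained it, all but 4 of these only by removing the fold-change threshold. The direction turned for LINC00511 (0.26) and LINC00674 (0.041) in Cl10 when the median of neighbouring genes was subtracted, and the cause was not tested. Depth limits the low LINC RNAs, of which the lowest had a mean of 35.8 counts per library.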
